A study of Drosophila melanogaster with 17 samples.

Results

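The long non-coding RNA (lncRNA) genes of the fly were followed through sorted progenitor cells of the adult midgut in which the bHLH transcription factors da and scute had been raised or lowered. Members were chosen by name and by their raw counts: a gene was taken when its symbol in the authors' deposited workbook starts with lncRNA: and it had at least 10 raw counts in at least 3 of the 17 libraries. This gave 406 genes of the 17807 in the count files, and the prefix is dropped from their names below. The rule used the counts of all libraries, so a gene expressed in 1 condition alone could enter through that condition. CR45259, the member nearest the threshold, reached 10 counts in 4 libraries, and CR45052, CR34046 and CR43883 did so in 5. No lncRNA gene of the workbook lay below the threshold. A further 919 lncRNA genes of the count files met the same count rule but are not in the workbook and were not followed.

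LncRNAs are transcripts that carry no long translated reading frame. Some act as RNAs on chromatin or in nuclear bodies, some are precursors from which microRNAs are cut, and for many others the act of transcription through or beside a neighbouring gene is the only described activity. In Drosophila the best-known examples are the roX RNAs of X chromosome dosage compensation, the heat-inducible Hsromega RNA and the let-7 complex transcript, whereas most genes with a CR number have no described role.

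All flies carried esg-Gal4, UAS-GFP and tub-Gal80[ts]. They grew to adults at 18 °C and then spent 2 days at 29 °C, the temperature that lifts the Gal80 block on Gal4. In batch 1, UAS-da (da overexpression, 2 libraries) and a UAS RNAi line against da (da knock-down, 3 libraries) were set against the driver crossed to a control strain (3 libraries). In batch 2, UAS-da:da (a da homodimer joined by force) and UAS-scute (3 libraries each) were set against that batch's own control (3 libraries). The bHLH factor da, the E protein of the fly, acts on DNA as a pair with itself or with a proneural partner such as scute. The driver acts in every esg-positive cell, stem cells and enteroblasts alike. Each library was made from about 100 pooled midguts and 20000 to 40000 sorted GFP-positive cells, after amplification of the RNA. A replicate is thus a pool, and in such bulk RNA fewer cells of a type and less RNA per cell cannot be told apart.

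Between 33889877 and 40868714 reads per library were assigned to genes in batch 1, and between 47136298 and 66679229 in batch 2. Batch 1 was read as single 50 nt reads and batch 2 as pairs of 150 nt reads, so a difference in level between batches cannot be told apart from these settings, and each genotype was compared with the control of its own batch. The manipulated genes moved with the labels. Mean da levels were 871 CPM (read counts scaled to a common library size) with da overexpression and 27.9 CPM with knock-down, against 112 CPM in the batch 1 control, and sc, the gene of scute, stood at 2062 CPM with scute, against 1.77 CPM in the batch 2 control. The defining progenitor marker esg averaged between 429 and 928 CPM in the 6 groups. Summed enteroendocrine markers, a list of 11 genes of the hormone-secreting cells, lay between 7800 and 13657 CPM with scute and between 5487 and 9657 CPM with da:da, against 4592 to 5067 CPM in the batch 2 control, so these cells or their RNA were present in the sort. In scute libraries 10 of these 11 markers rose and 1, NPF, fell. Replicate 3 of scute and replicate 3 of da:da stood further from the rest of their group than the other libraries of that group did from each other. Batch 1 control replicates 1 and 3 and the 2 da overexpression libraries were also far apart, with a chi-square of 119.3 and 101.2 per gene, beside 106.6 for replicates 1 and 3 of da:da and 174 for those of scute. Counts without these libraries are given with the results.

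The lncRNA genes were weakly expressed. Their median level was 0.565 CPM in batch 1 and 1.55 CPM in batch 2, and 161 of the 406 had at least 10 counts in all 17 libraries. Together they took between 1.69% and 2.57% of the counts in batch 1 and between 1.37% and 2.14% in batch 2. The 3 with the highest level per kilobase of exon, CR34335, CR40469 and CR42862, held between 62.9% and 94.5% of these counts. A filter on low counts let 288 of the 406 into the batch 1 tests, while the other 118 were too low there, and all 406 into the batch 2 tests. Exon lengths ran from 201 to 21710 nt with a median of 795 nt, and 221 genes had a single exon block. Of the 406 genes, 219 overlapped no other gene and 114 lay within the span of another gene without sharing exon bases. A further 65 shared under 50% of their exon bases and 8 shared 50% or more. In 132 genes another gene lay on the opposite strand of the span. The libraries are stranded but were counted without regard to strand, so for these genes reads of the lncRNA and of its antisense partner cannot be told apart.

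Overexpression of scute moved the most lncRNA genes, and da:da and the 2 changes of da moved fewer. A gene was called at an adjusted p under 0.05 in edgeR's quasi-likelihood test with Benjamini-Hochberg adjustment over all genes of the batch. With da overexpression 30 of the 288 tested lncRNA genes rose and 14 fell, 15.3% in all, against 22.9% of all 9540 genes tested. The count of 44 dropped to 27 without batch 1 control replicate 1 and to 26 without replicate 2, and was 35 and 30 without da replicate 1 and 2. Without control replicate 3 it was 34. With da knock-down 33 rose and 20 fell, 18.4% against 20.4% of all genes. The count of 53 dropped to 30 without control replicate 1 and likewise without replicate 2, and was 48 without replicate 3. With da:da 34 of 406 rose and 16 fell, 12.3% against 11.9% of all 14190 genes tested, and without da:da replicate 3, 44 were called, 38 of them among these 50. With scute 107 rose and 65 fell, 42.4% against 45.0% of all genes, and without scute replicate 3, 160 were called, 155 of them among these 172. The shares of called lncRNA genes were thus below or near those of all genes tested in each comparison. The lncRNA genes come from the 9986 genes of the workbook, whereas the 14190 genes tested in batch 2 include others. Here and below, the batch 2 shares thus rest on unlike sets. In the authors' deposited table, limited to workbook genes, 17.8% of all genes passed with da:da and 58.6% with scute. Of the 406 lncRNA genes, 36 were higher and 15 lower there with da:da, and 99 and 57 with scute. The median log2 fold change over the tested lncRNA genes was -0.04, 0.03, -0.00 and 0.08 in these 4 comparisons, in the order given, beside -0.02, -0.01, -0.01 and 0.05 over all genes. The knock-down median was the same with its 2 lncRNA genes that had a group at 0 counts set to their bound.

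More lncRNA genes were called higher than lower in each of the 4 comparisons, though in batch 1 this depended on single libraries. Of the 288 lncRNA genes tested with da overexpression, 10.4% rose and 4.86% fell, beside 13.5% and 9.36% of all genes. With knock-down 11.5% rose and 6.94% fell, beside 11.2% and 9.16%. Without da replicate 1 the da calls were 17 higher and 18 lower, and without knock-down replicate 2 the knock-down calls were 20 higher and 20 lower. With da:da 8.37% rose and 3.94% fell, beside 5.39% and 6.52%, and with scute 26.4% rose and 16.0% fell, beside 22.8% and 22.2%. The 2 direct comparisons gave 38 higher and 28 lower lncRNA genes with da overexpression against knock-down, 22.9% beside 30.1% of all genes, and 90 higher and 80 lower with scute against da:da, 41.9% beside 42.7%. In all, 210 of the 406 genes were called in at least 1 of the 4 comparisons with a control and 196 in none.

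A small set of lncRNA genes that were near 0 in control cells rose many-fold with da and with da:da. CR43883, a gene of 1 exon block at 3L:820759-821512 on the plus strand, had 2.47 and 3.80 CPM with da overexpression, against 0.119, 0.0681 and 0.0508 CPM in its control. In batch 2 it had 25.9, 25.6 and 19.7 CPM with da:da, against 0.0738, 0.0848 and 0.0518 CPM in the control, while the 3 scute libraries had 0.0415, 0.0253 and 0.114 CPM. The da and da:da libraries all lay above every control library, and the scute libraries overlapped theirs. Genes named for their largest changes were chosen for a lack of overlap with the control, so that separation is no added support. The log2 fold change was 5.25 ± 0.50 (SE) with da (edgeR adjusted p = 0.000298), 8.38 ± 0.34 for the da:da homodimer (adjusted p = 4.96e-08) and -0.18 with scute (adjusted p = 0.832). CR43883 passed the count rule only through the da and da:da libraries. In knock-down cells it had 0 counts in all 3 libraries against 10 counts over the 3 control libraries, at least 2.64-fold lower (adjusted p = 0.0239). That call was lost without control replicate 1 (adjusted p = 0.0639) or 2 (0.0576) and without knock-down replicate 1 (0.0595) or 2 (0.0593). Its nearest neighbours, CR44537 and Sf3b3, lie 6272 nt and 5208 nt away and were not called.

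CR43785, at 3L:737052-737479 on the minus strand, was also highest in the da and da:da libraries of its batches. It had 21.2 and 19.4 CPM with da overexpression and 0.595, 0.702 and 0.935 CPM with knock-down, against 0.522, 0.250 and 0.279 CPM in the batch 1 control. It had 6.77, 6.63 and 4.89 CPM with da:da and 0.720, 0.861 and 0.834 CPM with scute, against 0.590, 0.339 and 0.605 CPM in the batch 2 control. The da and da:da libraries stood clear of all others. The log2 fold change was 5.84 ± 0.30 with da (edgeR adjusted p = 2.16e-06), 3.56 ± 0.26 with da:da (adjusted p = 2.69e-06) and 0.64 with scute (adjusted p = 0.0608). With knock-down it was 1.07 ± 0.31 (adjusted p = 0.0365), a call that was lost with the replicate number as a block (adjusted p = 0.0524) and reached 0.142 without control replicate 2. The protein-coding gene hng3, 201 nt away, moved alongside. Its log2 fold change with da was 4.21 (edgeR adjusted p = 1.07e-06), and for da:da it was 3.07 (adjusted p = 1.36e-06).

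CR44811 lies antisense within bs, the gene of the fly serum response factor, at 2R:24351477-24369689. It had 13.3 and 34.7 CPM with da overexpression and 0.283, 0.292 and 0.134 CPM with knock-down, against 0.142, 0.363 and 0.406 CPM in the batch 1 control. It had 2.90, 3.40 and 3.07 CPM with da:da and 0.969, 1.28 and 1.28 CPM with scute, against 0.314, 0.276 and 0.225 CPM in the batch 2 control. All da, da:da and scute libraries exceeded their controls, and knock-down overlapped its own. The log2 fold change was 6.29 ± 0.49 with da (edgeR adjusted p = 2.43e-05), 3.52 ± 0.25 with da:da (adjusted p = 2.39e-06) and 2.11 ± 0.25 with scute (adjusted p = 2.22e-05). Set directly against each other, scute libraries were lower than da:da libraries by a log2 fold change of -1.41 (adjusted p = 0.000196). The counts of bs itself gave log2 fold changes of -0.03 with da, -0.08 with da:da and 0.06 with scute and were not called.

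CR42874, at 2L:1989450-1990894 between Npc2a and Obp22a, was higher in all 3 overexpression genotypes. It had 14.1 and 15.7 CPM with da overexpression and 0.368, 0.117 and 0.401 CPM with knock-down, against 1.11, 0.704 and 0.762 CPM in the batch 1 control. It had 20.1, 22.1 and 20.6 CPM with da:da and 10.9, 12.2 and 10.8 CPM with scute, against 2.14, 2.44 and 1.99 CPM in the batch 2 control. None of the groups overlapped its control. The log2 fold change was 4.11 ± 0.34 with da (edgeR adjusted p = 3.63e-05), 3.26 ± 0.14 with da:da (adjusted p = 4.96e-08) and 2.37 ± 0.13 with scute (adjusted p = 8.3e-08). With knock-down it fell by 1.54 on the log2 scale (adjusted p = 0.0192, and 0.0701 without control replicate 1). Npc2a, a gene of sterol transport 510 nt away on the same strand, moved with it in knock-down (-2.69, adjusted p = 1.34e-05) and da:da (2.55, adjusted p = 4.96e-08), and was not called with da (0.26, adjusted p = 0.311) or scute (0.19, adjusted p = 0.157). Obp22a, 487 nt away, was too low for a test in batch 1. With da:da Obp22a rose (2.05, adjusted p = 0.019) at a mean of 0.295 CPM, against 0.0697 CPM in the control. It was not called with scute (1.11, adjusted p = 0.1).

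2 further genes rose with da overexpression and were not called with da:da. CR46060, antisense to CG31324 at 3R:26124809-26125423, had 2.29 and 2.14 CPM with da overexpression, against 0.0237, 0.0908 and 0.152 CPM in the control (log2 fold change 4.60 ± 0.63, edgeR adjusted p = 0.000837). With da:da it gave 0.31 (adjusted p = 0.668). CR44544, at 3L:10784590-10785360, had 1.24 and 2.25 CPM with da overexpression, against 0.0474, 0.0681 and 0.152 CPM in the control (4.26 ± 0.82, adjusted p = 0.00541). Batch 2 control cells already held 0.466 to 1.13 CPM of CR46060 and 0.311 to 0.609 CPM of CR44544. Whether da and da:da differ in these genes was not tested, since the genotypes come from different batches. Both tested Malpighian tubule markers rose with da, Irk2 (6.56, adjusted p = 0.000264) and ZnT35C (2.04, adjusted p = 0.0381), with a sum of 4.58 and 8.83 CPM, against 0.152 to 0.451 CPM in the control. With da:da Irk2 rose (0.79) and the sum was 5.28 to 5.63 CPM, and with scute ZnT35C rose (5.49) and the sum was 57.9 to 62.5 CPM, against 3.04 to 4.85 CPM in the batch 2 control. Their part in the lncRNA results of da, da:da and scute was not tested.

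**Figure D1:**
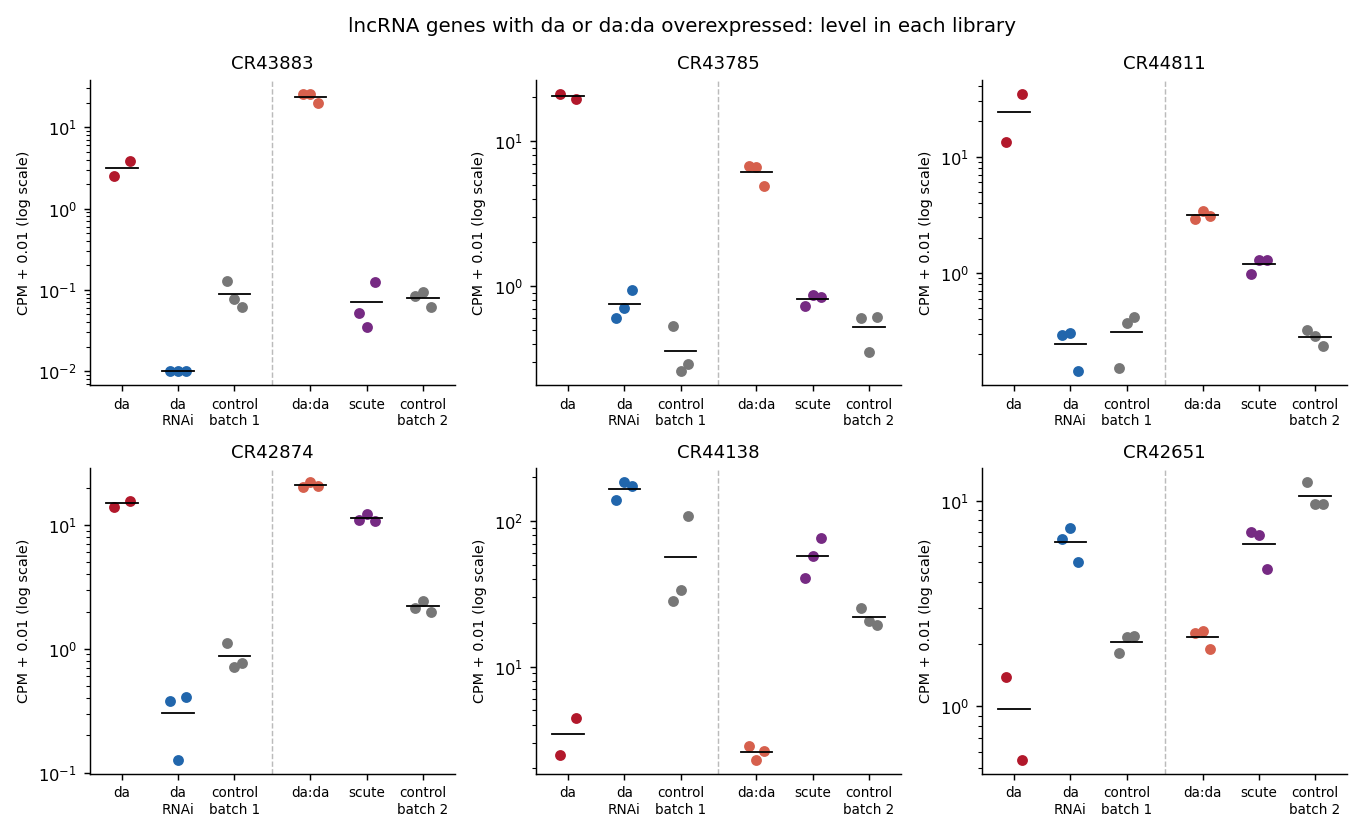
Level of 6 lncRNA genes in every library, as CPM + 0.01 on a log axis, with 1 point per library, a bar for the group mean, batch 1 (da, da RNAi, control) on the left and batch 2 (da:da, scute, control) on the right. CR43883, CR43785, CR44811 and CR42874 lie above their controls with da and da:da, whereas CR44138 and CR42651 lie lowest with da and da:da and highest of their batch 1 groups with da RNAi.

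CR44138, at 3R:13376903-13377395 and antisense to CG9813, moved in the opposite direction to these genes. It had 2.47 and 4.45 CPM with da overexpression and 140, 184 and 174 CPM with knock-down, against 28.1, 33.4 and 108 CPM in the batch 1 control. It had 2.83, 2.28 and 2.61 CPM with da:da and 40.5, 57.3 and 76.0 CPM with scute, against 25.3, 20.7 and 19.3 CPM in the batch 2 control. No genotype overlapped its control, and control replicate 3 of batch 1 was the highest of its group. CR44138 fell with da overexpression (-4.01 ± 0.62, edgeR adjusted p = 0.0016). It also fell with da:da (-3.08 ± 0.22, adjusted p = 2.42e-06) and rose with scute (1.41 ± 0.20, adjusted p = 9.79e-05). The rise with knock-down (1.56 ± 0.46, adjusted p = 0.0387) was lost with DESeq2 (adjusted p = 0.0521), without control replicate 1 (0.107) or 2 (0.138), and without any 1 knock-down library (0.0611 to 0.0922). Against each other, da overexpression was lower than knock-down by -5.57 (adjusted p = 0.000236). CG9813 fell with da (-2.66, adjusted p = 0.00258) and rose with scute (1.53, adjusted p = 1.51e-05), and was not called with da:da (-0.36).

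CR42651, whose span at 3R:6808796-6816379 contains mir-10 in the Hox cluster, and CR44522, 314 nt from Ldh, the lactate dehydrogenase gene, were also below their controls with da:da and at their lowest batch 1 levels with da. CR42651 had 1.39 and 0.539 CPM with da overexpression and 6.48, 7.34 and 5.01 CPM with knock-down, against 1.80, 2.16 and 2.18 CPM in the batch 1 control. In batch 2 it had 2.27, 2.30 and 1.88 CPM with da:da and 7.06, 6.79 and 4.62 CPM with scute, against 12.2, 9.60 and 9.59 CPM in the control. It rose with knock-down (1.62 ± 0.31, edgeR adjusted p = 0.00661), fell with da:da (-2.29 ± 0.20, adjusted p = 1.42e-05) and with scute (-0.77, adjusted p = 0.00522), and gave -1.11 with da (adjusted p = 0.0604). CR44522 fell with da (-1.73, adjusted p = 0.00822), da:da (-1.97, adjusted p = 0.013) and with scute (-1.96, adjusted p = 0.00239) and rose with knock-down (1.06, adjusted p = 0.0296). Ldh was called in the same direction each time, with log2 fold changes of -1.62, -1.52, -0.60 and 0.84. Except for scute, each CR44522 call was lost in some fits with 1 library left out. The da call was lost only without da replicate 2 (adjusted p = 0.0537). The knock-down and da:da calls were lost without any 1 of several libraries (adjusted p up to 0.108 and up to 0.0564).

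The da and da:da comparisons share no library, so their calls can be set against each other. Of the 288 lncRNA genes tested in both batches, 44 were called with da and 44 with da:da, and 18 were called in both, 40.9% of each set. For all 9494 genes tested in both, 828 were called in both, 38.1% of the da set and 52.4% of the da:da set. Among the 18 shared lncRNA genes 17 moved in the same direction, 11 higher and 6 lower, and 787 of the 828 did so over all genes. The 11 that rose in both were CR44811, CR43785, CR43883, CR46217, CR42874, lncRNA:CR45320, CR44861, CR44756, CR44851, CR45793 and let7C. The 6 that fell in both were CR44272, CR44138, CR44522, CR44145, noe and CR44506. The exception was CR44913, antisense to DIP-iota at 2L:6619080-6619446. It had 0.151 and 0.135 CPM with da overexpression, against 0.664, 0.431 and 0.330 CPM in the control (-1.72, edgeR adjusted p = 0.0483), and 2.29, 2.17 and 2.50 CPM with da:da, against 0.387, 0.233 and 0.432 CPM in the control (2.70 ± 0.49, adjusted p = 0.00333). The da call of CR44913 was lost with DESeq2 (0.12) and without da replicate 1 (0.133) or 2 (0.19).

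**Figure D2:**
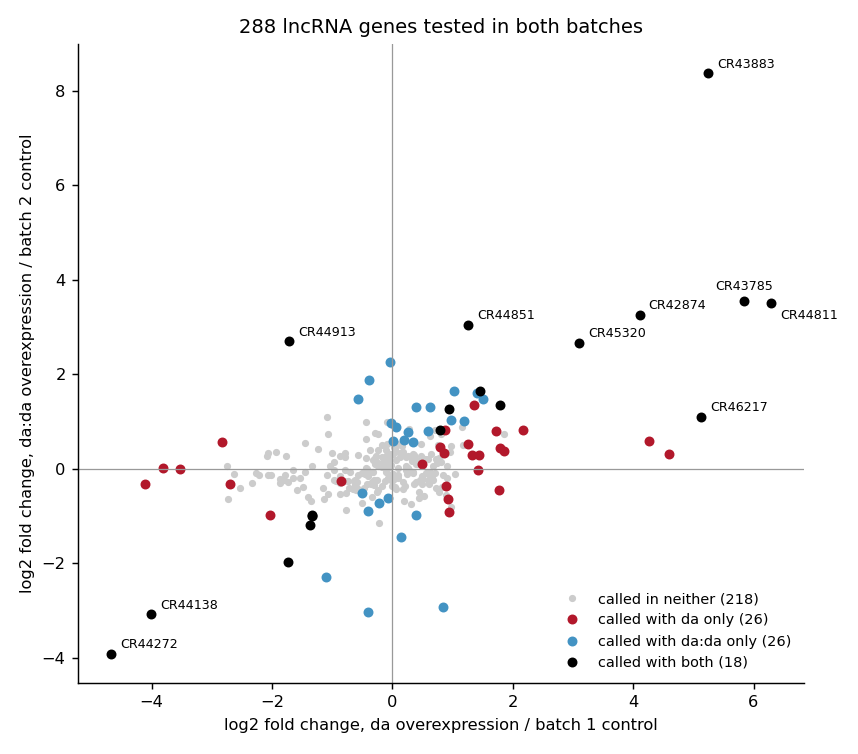
Log2 fold change of the 288 lncRNA genes tested in both batches, da overexpression over the batch 1 control on the horizontal axis and da:da over the batch 2 control on the vertical axis, coloured by the comparison in which a gene was called. Of the 288, 18 were called in both, 26 with da only, 26 with da:da only and 218 in neither, and CR44913 is the shared gene off the diagonal quadrants.

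Knock-down of da and overexpression of da:da had 17 called lncRNA genes in common, 32.1% of the knock-down set and 38.6% of the da:da set, and 6 of the 17 moved the same way, beside 23.9% of the shared genes over all genes. With da overexpression and scute, 29 genes were called in both, 65.9% of the da set and 21.0% of the scute set, and 17 of them, 58.6%, moved the same way. Over all genes 67.6% of the da set and 26.3% of the scute set were shared and 72.0% of these moved the same way. With knock-down and scute 32 were called in both, 60.4% and 23.2% of the sets, and 11, or 34.4%, moved the same way, beside 68.5%, 23.8% and 33.3% over all genes. Of the 18 shared genes some were named after their values were seen. lncRNA:CR45320, 117 nt from the fatty acid hydroxylase gene fa2h at 2R:7451670-7452365, rose with da (3.10, edgeR adjusted p = 0.0104), da:da (2.67, adjusted p = 0.00143) and scute (3.24, adjusted p = 5.48e-05), and fa2h was called in the same 3 comparisons with 1.47, 1.32 and 5.47. CR44145 fell with da (-1.38, adjusted p = 0.019), da:da (-1.20, adjusted p = 0.0229) and scute (-1.62, adjusted p = 0.000821) and rose with knock-down (1.75, adjusted p = 0.00284). CR44506 fell with da (-1.33, adjusted p = 0.0239) and da:da (adjusted p = 0.0022) and rose with knock-down (1.60, adjusted p = 0.00523) and scute (1.60, adjusted p = 9.2e-06).

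CR44851, antisense to Rab14 at 2L:14355468-14356878, was among the larger rises with da:da. It had 4.57, 5.24 and 4.59 CPM with da:da, against 0.480, 0.636 and 0.622 CPM in the control (log2 fold change 3.05 ± 0.27, edgeR adjusted p = 1.49e-05). With da it had 1.81 and 1.57 CPM, against 0.830, 0.772 and 0.508 CPM in the control (1.26, adjusted p = 0.0461, and up to 0.14 when 1 library was left out, without da replicate 1). It also rose with scute (1.44, adjusted p = 0.000751). Rab14, a gene of endosomal traffic, was called higher in each of these 3 comparisons, with 1.06 for da:da, 0.96 for da and 0.84 for scute. CR45215 shares 18.1% of its exon bases with Ctr1B, a copper transporter gene, and had 0.163, 0.0456 and 0.263 CPM with da:da, against 0.904, 1.82 and 1.02 CPM in the control (-2.93 ± 0.49, adjusted p = 0.00192). Ctr1B fell with da:da as well (-2.66, adjusted p = 0.000941).

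Some lncRNA genes fell with da overexpression and with knock-down alike. These 2 comparisons share their control libraries, so both rest on the same 3 control values. CR43794, at 2R:23507078-23507832, had 0.0301 and 0.0674 CPM with da overexpression and 0 counts in the 3 knock-down libraries, against 0.925, 0.817 and 0.534 CPM in the control. It fell with da (-3.82 ± 0.65, edgeR adjusted p = 0.00541) and was at least 25.3-fold lower with knock-down, 0 against 96 counts (adjusted p = 0.00113). CR46003, at 3L:10286900-10307954, had 0.241 and 0.0450 CPM with da overexpression and 0.113, 0.380 and 0.134 CPM with knock-down, against 1.40, 1.91 and 1.50 CPM in the control (-3.53 ± 0.72, adjusted p = 0.00684, with da and -2.91 ± 0.58, adjusted p = 0.00771, with knock-down). CR32690, at X:10204400-10205289, had 0.452 and 1.06 CPM with da overexpression and 0.510, 0.497 and 0.568 CPM with knock-down, against 6.19, 5.49 and 4.70 CPM in the control. It fell with da (-2.83 ± 0.37, adjusted p = 0.000594) and with knock-down (-3.37 ± 0.33, adjusted p = 0.000234). None of these 3 genes was called with da:da or scute in batch 2. CR45711, at X:19132927-19133563, had 3 counts over the 2 da libraries and 92 over the 3 control libraries, 19.0-fold lower with a 95% counting interval of 6.29 to 93.7 (adjusted p = 0.0162, and 0.0831 or 0.0964 without da replicate 1 or 2). The knock-down call of CR45711 (-2.92 ± 0.77, adjusted p = 0.0267) was lost with the replicate block (0.0639). With scute CR45711 rose, at 2.02, 1.28 and 0.884 CPM against 0.221, 0.297 and 0.225 CPM in the control (2.49 ± 0.36, adjusted p = 0.000111).

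CR43704 and CR45949 led the rises with knock-down of da. CR43704, at 2L:3769926-3770454, had 1.56, 1.40 and 1.40 CPM with knock-down, against 0.0711, 0.0681 and 0.127 CPM in the control (16.4-fold higher, edgeR adjusted p = 0.000265). The zinc finger gene bowl, 1246 nt away, rose by 2.93 (adjusted p = 0.000193). CR45949, at 2L:9948908-9951122, had 6.34, 7.66 and 4.54 CPM with knock-down, against 0.593, 0.681 and 0.305 CPM in the control (3.54 ± 0.41, adjusted p = 0.000491). CR44505, at 2R:19683495-19684195, had 1.93, 1.75 and 1.54 CPM with knock-down, against 0.308, 0.113 and 0.0508 CPM in the control (3.43 ± 0.63, adjusted p = 0.00528), and its neighbour CG34198 rose by 2.83. In each of these genes all knock-down libraries exceeded all control libraries, which the rule that chose them required. CR45156, antisense to Cip4 at 3L:4345801-4347801, had 5.13, 5.23 and 3.81 CPM with knock-down, against 0.806, 1.04 and 1.07 CPM in the control (2.28 ± 0.27, adjusted p = 0.000529). CR45156 also rose with da:da (1.30, adjusted p = 0.00563) and scute (2.14, adjusted p = 2.88e-05), whereas Cip4 rose with knock-down (0.70) and da:da (0.67) and fell with scute (-0.67).

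CR45215 rose with knock-down at 0.765, 0.965 and 0.301 CPM, against 0.119, 0.0908 and 0.254 CPM in the control (2.13 ± 0.59, edgeR adjusted p = 0.0314), but the call was lost with the replicate block (0.064) and reached 0.126 without control replicate 2. The deepest falls in knock-down cells rest on few counts. CR44709, at 3L:4493734-4495215, had 2 counts over the knock-down libraries and 201 over the control libraries, 79.6-fold lower with a 95% counting interval of 21.7 to 662 (adjusted p = 0.00718). CR45138, antisense to CG46338 at 2R:9868219-9869159, had 2 against 34 counts, 13.5-fold lower with an interval of 3.45 to 116 (adjusted p = 0.029, 0.0595 with DESeq2 and 0.0615 to 0.0854 without any 1 knock-down library). CR44050, in the span of the chloride channel gene pHCl-1 at 3L:15884593-15885747, had 0.0283, 0.263 and 0.0668 CPM with knock-down, against 1.56, 2.31 and 1.07 CPM in the control (-3.74 ± 0.87, adjusted p = 0.0156). Its call ended when control replicate 2 (0.0572) or knock-down replicate 1 (0.0504) or 3 (0.0558) was left out. These intervals and bounds cover counting error only. Summed progenitor markers were between 529 and 639 CPM in knock-down cells, against 898 to 1044 CPM in the control, with 4 of 6 markers lower, and 4 of 12 enterocyte markers rose. Over all genes 9.16% were called lower and 11.2% higher with knock-down. The part of these markers in the knock-down results was not tested.

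The largest rises with scute reached levels far above those in any other genotype. The gene noe, first described as a non-coding RNA of the nervous system, lies within the span of the transporter gene blot at 3L:17400272-17401348. It had 468, 423 and 412 CPM with scute and 4.57, 4.08 and 4.97 CPM with da:da, against 9.09, 9.64 and 8.24 CPM in the batch 2 control. The scute libraries were thus about 48.3-fold above the control and the da:da libraries below it. The log2 fold change was 5.59 ± 0.13 with scute (edgeR adjusted p = 3.53e-10). For da:da it was -0.98 ± 0.11 (adjusted p = 9.38e-05), and scute against da:da gave 6.58 (adjusted p = 9.91e-11). In batch 1 noe had 4.28 and 1.93 CPM with da overexpression and 1.76, 1.40 and 1.54 CPM with knock-down, against 8.35, 8.71 and 6.30 CPM in the control. It fell with da (-1.33 ± 0.33, adjusted p = 0.0161) and knock-down (-2.31 ± 0.30, adjusted p = 0.000889), and the da call ended when control replicate 1 (0.0504) or 2 (0.0595) or da replicate 2 (0.0699) was left out. The counts of blot gave 1.78 with scute, 2.17 with da and 3.31 with knock-down, all called, so blot and noe moved in opposite directions in batch 1.

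CR46217, at 3R:12833127-12833725, had 105, 104 and 121 CPM with scute and 2.05, 2.14 and 3.57 CPM with da:da, against 0.812, 1.42 and 1.40 CPM in the batch 2 control. It had 2.71 and 3.06 CPM with da overexpression, against 0.119, 0.0681 and 0.0508 CPM in the batch 1 control. All scute, da:da and da libraries lay above their controls. The log2 fold change was 6.51 ± 0.26 with scute (edgeR adjusted p = 7.66e-09), 1.10 ± 0.24 with da:da (adjusted p = 0.0109) and 5.13 ± 0.52 with da (adjusted p = 0.000126). With knock-down it had 1 count over 3 libraries against 10 over the control libraries, 7.92-fold lower with a 95% counting interval of 1.13 to 344 (adjusted p = 0.0628). The next gene on 1 side, CG31345 at 16098 nt, rose with scute (5.99, adjusted p = 1.12e-07) and fell with knock-down (-4.63, adjusted p = 0.000831), and gave -1.05 with da, which was not called. On the other side, the closer gene beat-Va at 6835 nt was not called with scute (-0.38, adjusted p = 0.265) or da:da (-0.46, adjusted p = 0.336).

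CR44272, at 2R:7992196-7992567 beside ACC, the acetyl-CoA carboxylase gene, changed in opposite directions between genotypes. It had 105, 152 and 215 CPM with scute and 0.290, 0.0456 and 0.395 CPM with da:da, against 1.25, 5.85 and 4.51 CPM in the batch 2 control. It had 0.211 and 0.0450 CPM with da overexpression and 0.0566, 0.0292 and 0.0668 CPM with knock-down, against 4.01, 3.45 and 2.01 CPM in the batch 1 control. Every scute library exceeded and every da, da:da and knock-down library lay below its controls. CR44272 rose with scute (5.35 ± 0.51, edgeR adjusted p = 4.01e-06) and fell with da:da (-3.91 ± 0.63, adjusted p = 0.00145), da (-4.67 ± 0.62, adjusted p = 0.000681) and knock-down (-5.88 ± 0.59, adjusted p = 0.000261). Set directly against da:da, scute was higher by 9.26 ± 0.65 (adjusted p = 4.33e-07). ACC, 334 nt away, fell with scute (-0.43, adjusted p = 0.00382) and with da (-0.51, adjusted p = 0.0365). Of the 11 enteroendocrine markers, 10 were higher with scute, 5 were lower with da and 6 with knock-down. With da:da 3 were lower and 0 higher, at a median log2 fold change of 0.04 and a summed level above the control. Their part in the values of CR44272 and noe was not tested.

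CR44888, antisense to the Golgi gene Gmap at X:15497523-15497862, had 140, 156 and 186 CPM with scute and 8.89, 8.75 and 8.82 CPM with da:da, against 5.61, 6.47 and 8.90 CPM in the control. It rose with scute (4.52 ± 0.18, edgeR adjusted p = 6.44e-09) and gave 0.33 with da:da (adjusted p = 0.246). Gmap rose with scute (1.23) and with da:da (1.20). With knock-down CR44888 had 1.27, 2.08 and 1.00 CPM, against 3.30, 4.70 and 3.12 CPM in the control (-1.35 ± 0.36, adjusted p = 0.0267, and up to 0.118 without control replicate 2). CR45259 and CR45052 were too low for a test in batch 1 and passed the count rule mainly through the scute libraries. CR45259, at 2L:799856-800323, had no counts in batch 1 and 3.79, 4.46 and 3.31 CPM with scute, against 0.0738, 0.0848 and 0.138 CPM in the control (5.24 ± 0.52, adjusted p = 5.49e-06). CR45052, at 3R:31704781-31705498, had 2.89, 2.75 and 2.41 CPM with scute, against 0.332, 0.0848 and 0.0345 CPM in the control (4.14 ± 0.68, adjusted p = 0.000329), and its neighbour CG42693, 2372 nt away, rose by 5.68.

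**Figure D3:**
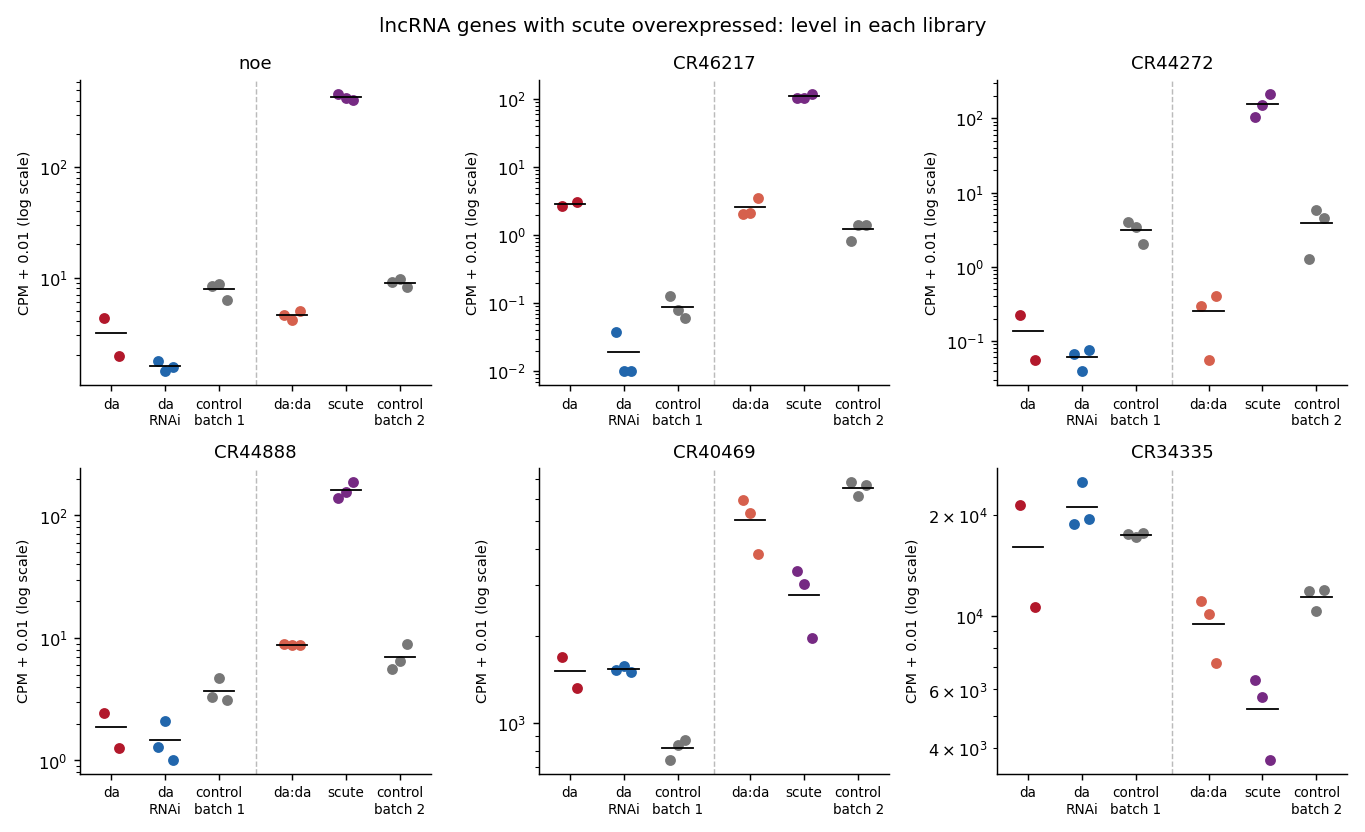
Level of 6 lncRNA genes in every library, as CPM + 0.01 on a log axis, with 1 point per library and a bar for the group mean, batch 1 on the left and batch 2 on the right. The 3 scute libraries of noe, CR46217, CR44272 and CR44888 lie between 104 and 468 CPM, above all other libraries, and those of the abundant CR40469 and CR34335 lie below the 3 controls of batch 2.

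The falls with scute were smaller. CR44994, at 2L:16490224-16490890, had 0.152, 0.253 and 0.126 CPM with scute and 0.363, 0.137 and 0.150 CPM with da:da, against 1.66, 2.35 and 1.43 CPM in the control (-3.34 ± 0.40, edgeR adjusted p = 2.84e-05, with scute and -3.03 ± 0.41, adjusted p = 0.000404, with da:da). Its neighbour Nepl8, 42 nt away, moved the other way with da:da (2.06, adjusted p = 0.000681) and was not called with scute (0.04, adjusted p = 0.936). CR43837, at X:6995882-6997799 and 873 nt from the gap junction gene Inx2, had 0.304, 0.215 and 0.455 CPM with scute, against 2.51, 2.16 and 1.36 CPM in the control (-2.62 ± 0.34, adjusted p = 5.01e-05). CR45745, at 3L:10978011-10978302, lies 2869 nt from klu, a zinc finger gene expressed in enteroblasts. It had 0.581, 0.646 and 0.632 CPM with scute, against 3.60, 4.13 and 3.25 CPM in the control (-2.56 ± 0.21, adjusted p = 1.12e-06), and klu fell by 0.95 on the log2 scale. In these 3 genes the scute and control libraries did not overlap, which the rule that chose them required. CR44709 had 0.180, 0.203 and 0.290 CPM with scute, against 1.94, 1.25 and 0.760 CPM in the control (-2.54 ± 0.44, adjusted p = 0.000478). CR44868, antisense to beat-Ib at 2L:15912558-15913109, had 0.166, 0.253 and 0.227 CPM with scute, against 1.05, 0.975 and 1.43 CPM in the control (-2.41 ± 0.30, adjusted p = 3.82e-05). CR44784, at 2R:23383483-23384177 and 23 nt from CG30414, had 0.664, 0.241 and 0.379 CPM with scute, against 1.92, 1.51 and 2.44 CPM in the control (-2.19 ± 0.35, adjusted p = 0.00026). CG30414 fell by 2.89 with scute, so this pair moved together.

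Per kilobase of exon, 2 short genes of the X chromosome were the most abundant lncRNAs. CR34335, within DIP-alpha at X:3545750-3546110, averaged 36853 CPM per kilobase over the 17 libraries, and CR40469, at X:122493-122706, averaged 14613 CPM per kilobase, followed by CR42862 at 390.2, CR44138 at 110.0 and CR44888 at 94.9. CR34335 had 6384, 5707 and 3689 CPM with scute and 11075, 10092 and 7198 CPM with da:da, against 11852, 10285 and 11901 CPM in the batch 2 control. It fell with scute (-1.11 ± 0.21, edgeR adjusted p = 0.000929) and was not called in the other 3 comparisons with a control. CR40469 had 3357, 3028 and 1970 CPM with scute, against 6831, 6116 and 6660 CPM in the batch 2 control (-1.23 ± 0.20, adjusted p = 0.000348), and gave -0.37 with da:da (adjusted p = 0.313). It had 1694 and 1320 CPM with da overexpression and 1519, 1572 and 1505 CPM with knock-down, against 744, 837 and 869 CPM in the batch 1 control, so it was higher in both genotypes (0.88 ± 0.14, adjusted p = 0.00203, and 0.91 ± 0.13, adjusted p = 0.00143). Both comparisons again share the 3 control libraries. Of the other genes with the highest levels per kilobase, CR42862 (-0.76 ± 0.13, adjusted p = 0.000551), CR45517 (-1.09 ± 0.18, adjusted p = 0.000285) and CR42549 (-0.66 ± 0.13, adjusted p = 0.00106) fell with scute. CR45517 had 43.6, 38.0 and 28.5 CPM with scute, against 76.1, 91.1 and 66.3 CPM in the control. The part of RNA amplification and of the short transcript length in these levels was not tested.

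Of the characterised lncRNAs, noe has been described above. Hsromega, the heat-inducible gene whose nuclear transcript forms omega speckles with hnRNP proteins, had 697, 814 and 1422 CPM with scute and 796, 847 and 810 CPM with da:da, against 565, 711 and 672 CPM in the batch 2 control. The scute groups overlapped, and its call (0.59 ± 0.22, edgeR adjusted p = 0.0416) was lost without scute replicate 3 (0.173), the library with the most Hsromega. Summed heat shock genes were 4110, 5511 and 15434 CPM in the scute libraries, against 3628, 4350 and 3582 CPM in the control, so the same library stood out in both. With scute 9 of 13 heat shock genes rose, beside 22.8% of all genes. With da Hsromega had 823 and 487 CPM, against 376, 409 and 304 CPM in the control (0.85 ± 0.24, adjusted p = 0.0318, with the replicate block 0.0694, and 0.246 without da replicate 1). Of the 9 genes tested in the omega speckle list, which is not limited to hnRNP genes, 5 rose with scute, beside 22.8% of all genes. They were Hrb87F (0.63), Hrb98DE (0.37), nonA (0.68), nonA-l (1.18) and Iswi (0.50).

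The let-7 complex transcript let7C, the precursor of miR-100, let-7 and miR-125, had 8.38, 9.55 and 9.20 CPM with da:da and 4.62, 4.74 and 3.69 CPM with scute, against 4.87, 5.74 and 4.82 CPM in the control. It rose with da:da (0.81 ± 0.15, edgeR adjusted p = 0.00433) and gave -0.24 with scute (adjusted p = 0.239). In batch 1 it had 7.29 and 4.68 CPM with da overexpression and 5.24, 5.35 and 6.48 CPM with knock-down, against 3.41, 3.40 and 3.56 CPM in the control (0.79 ± 0.22, adjusted p = 0.029, and 0.72 ± 0.20, adjusted p = 0.0325). These calls reached 0.193 without da replicate 1 and 0.115 without control replicate 2. Of 7 genes of let-7 regulation and of its known targets, br rose with da (3.14), da:da (2.18) and scute (1.05), ab fell with knock-down (-0.92) and rose with scute (2.58), and EcR (0.64) and Hr3 (2.29) rose with scute. The gene roX1, one of the RNAs of the dosage compensation complex of males, had 4.35, 5.57 and 4.55 CPM with scute, against 1.97, 2.52 and 1.90 CPM in the control (1.18 ± 0.21, adjusted p = 0.000553), and was not called with da, knock-down or da:da. Of the 6 protein genes of that complex 1 rose with scute and 1 with da, beside 22.8% and 13.5% of all genes. The neuroblast RNA cherub was called in none of the 4 comparisons with a control. The Hox transcript iab8 and the piRNA precursor flam were too low for a test in batch 1 and were called with neither da:da nor scute. The levels of flam were 1.38, 5.89 and 0.985 CPM with scute, against 2.56, 4.18 and 1.14 CPM in the control, a spread within each group wider than the difference between them.

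For 22 of the 406 genes a microRNA lies within the span on the same strand, and counts of these host genes say nothing of the processed microRNA. With da overexpression 3 of 15 tested hosts were called and with knock-down 4 of 15, all of them higher, near the 22.9% and 20.4% of all genes called. With da:da 2 of 22 rose and 1 fell, and with scute 5 rose and 4 fell, beside 11.9% and 45.0% of all genes called. The scute falls included the hosts of bantam, mir-8 and mir-275. CR43334, the bantam host at 3L:628435-643900, had 32.7, 36.5 and 36.0 CPM with scute, against 45.8, 44.9 and 52.5 CPM in the control (-0.44 ± 0.09, edgeR adjusted p = 0.00213). CR43650, the mir-8 host, had 7.21, 8.07 and 4.95 CPM, against 12.1, 9.50 and 12.1 CPM (-0.74, adjusted p = 0.00611), and CR43857, the mir-275 host, had 2.32, 2.71 and 2.34 CPM, against 4.74, 4.58 and 4.59 CPM (-0.92, adjusted p = 0.00054). The groups did not overlap in any of the 3 genes.

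Among the hosts that rose with scute, CR43459, which holds mir-277 and mir-34, had 12.8, 13.0 and 13.2 CPM, against 8.10, 7.42 and 5.53 CPM in the control (0.89, edgeR adjusted p = 0.0015). CR46194, the host of mir-281-1 and mir-281-2, which shares 38.3% of its exon bases with another gene, rose by 1.09 (adjusted p = 0.00117), and CR45911, the host of mir-13a, mir-13b-1 and mir-2c, by 1.11 (adjusted p = 0.0106). CR43314, whose span at 2L:11952200-11971094 holds mir-bft, had 5.91 and 9.46 CPM with da overexpression and 13.3, 15.3 and 18.1 CPM with knock-down, against 2.66, 2.45 and 3.40 CPM in the control. It rose with da (1.44 ± 0.24, adjusted p = 0.00245), with knock-down (2.45 ± 0.23, adjusted p = 0.000154) and with scute (0.47, adjusted p = 0.00789). CR43270, the mir-958 host, had 2.66, 4.18 and 2.27 CPM with knock-down, against 1.02, 0.908 and 0.864 CPM in the control (1.70 ± 0.32, adjusted p = 0.00538). CR31044, the host of mir-279 and mir-996, had 64.2, 67.1 and 51.6 CPM with da:da, against 39.7, 32.4 and 34.8 CPM in the control. This rise (adjusted p = 0.0158) missed the threshold when control replicate 2 (0.0727) or 3 (0.0574) or da:da replicate 1 (0.0502) or 2 (0.067) was left out. The host genes of mir-14 and mir-184 were called in none of the 4 comparisons, and that of mir-1, too low for a test in batch 1, in neither of batch 2.

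**Figure D4:**
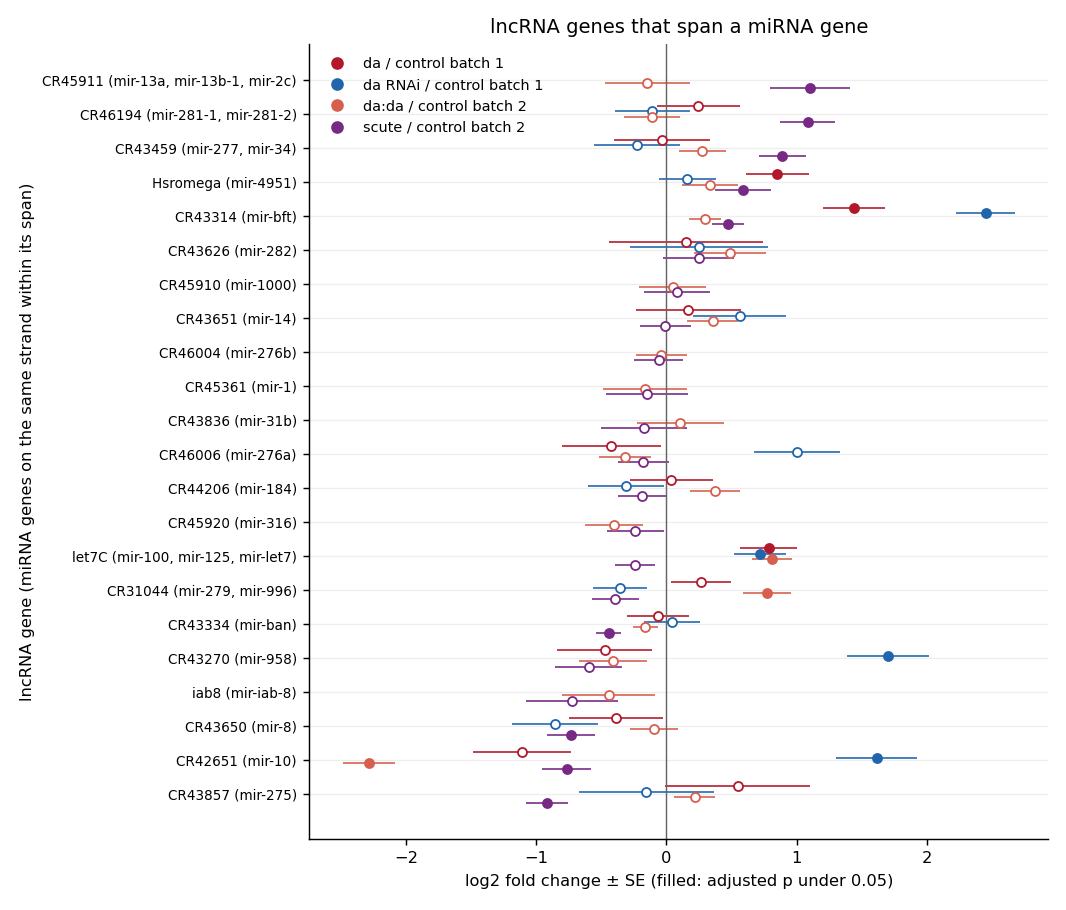
Log2 fold change with its standard error for the 22 lncRNA genes with a microRNA in their span, in the 4 comparisons with a control, ordered by the change with scute, with filled points for an adjusted p under 0.05. With scute 5 hosts rose and 4 fell, with da:da 2 rose and 1 fell, and in batch 1 only rises were called, 3 with da and 4 with knock-down.

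Each lncRNA gene was also set beside its nearest gene that is not itself one of the 406, taking an overlapping gene where there was one. Over the pairs in which both were tested, the log2 fold changes of lncRNA and neighbour had a Spearman correlation of 0.285 with da (223 pairs), 0.276 with knock-down (223 pairs), 0.375 with da:da (366 pairs) and 0.378 with scute (366 pairs). These are correlations across genes, which are no independent replicates and share libraries. In overlapping pairs a read over exons of both genes was counted for neither, while other reads of 1 gene may be counted for the other. Where both genes of a pair were called, they moved the same way in 11 of 13 pairs with da, 13 of 16 with knock-down, 26 of 29 with da:da and 82 of 103 with scute. Pairs flanking within 1 kb gave 0.342 with da, 0.410 with knock-down, 0.476 with da:da and 0.373 with scute, while pairs further apart gave 0.123, 0.0456, 0.120 and 0.401 in the same order. The order of the distance classes thus held in 3 of the 4 comparisons and turned with scute, and no test of that difference was made.

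**Figure D5:**
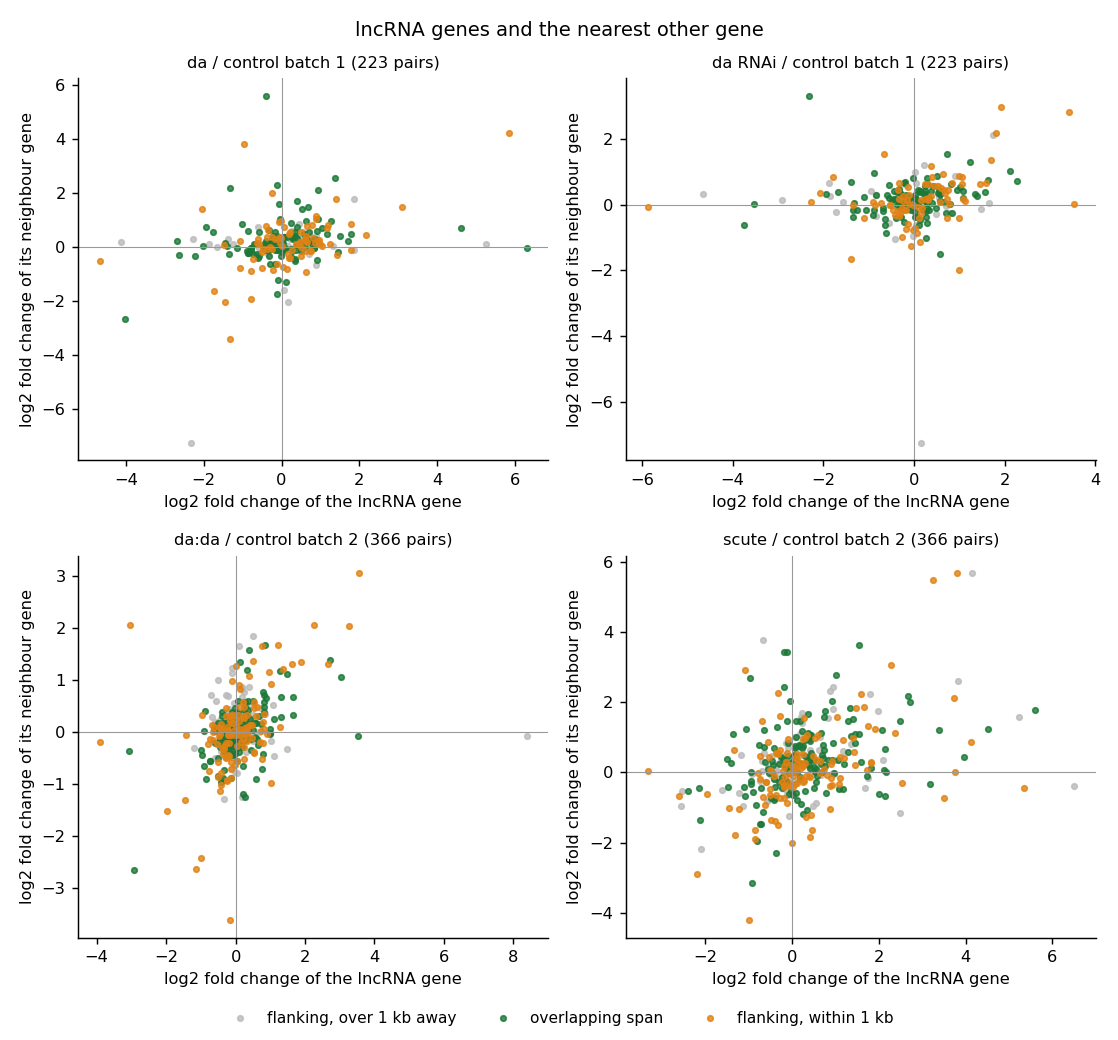
Log2 fold change of each lncRNA gene on the horizontal axis and of its nearest gene outside the set on the vertical axis, 1 panel per comparison with a control, coloured by overlapping, flanking within 1 kb or flanking over 1 kb. The Spearman correlation across pairs was 0.285 with da and 0.276 with knock-down (223 pairs each), 0.375 with da:da and 0.378 with scute (366 pairs each).

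Called lncRNA genes were found in all classes of position. Of the 219 lncRNA genes that overlap no other gene, 57 rose and 32 fell with scute, and of the 114 within another span 32 rose and 19 fell, in total near the 45.0% of all genes called. Of the 132 with a gene on the opposite strand, 34 rose and 18 fell with scute, beside 22.8% and 22.2% of all genes. With da:da 12 of them rose and 4 fell, beside 5.39% and 6.52% of all genes. The 8 genes that share at least 50% of their exon bases were the exception in direction, with 1 higher and 5 lower with scute. By chromosome, 24 of 71 lncRNA genes on 2R rose and 5 fell with scute, and on 3L 22 of 90 rose and 21 fell. The shares of all genes were 22.8% higher and 22.2% lower, taken over all chromosomes. These classes were not compared by a test.

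Lists of genes that process or turn over non-coding RNA were read beside the lncRNA genes. The list of the snoRNP core, the proteins that assemble with small nucleolar RNAs, had 9 of 10 genes lower with scute, among them Fib (-1.74) and nop5 (-1.90), and Nop17l higher (0.64). With da and with da:da 8 of these 10 fell each, and with knock-down 2 rose, at median log2 fold changes of -1.63 with scute, -0.63 with da, -0.67 with da:da and 0.08 with knock-down. Of 12 genes of the nuclear exosome, the complex that degrades many non-coding transcripts, 11 fell with scute, 7 with da and 5 with da:da. Beside both lists, the shares of all genes called lower were 22.2% with scute, 9.36% with da and 6.52% with da:da. The exosome median was -1.04 with scute, -0.70 with da, -0.50 with da:da and -0.19 with knock-down, beside the medians of all genes given above. Of 9 genes of nonsense-mediated decay, 3 rose and 4 fell with scute, 1 rose and 2 fell with da, and 2 rose with da:da, at medians of -0.20, -0.02 and 0.02. The shares of all genes called higher were 22.8% with scute, 13.5% with da and 5.39% with da:da. The part of these lists in the lncRNA levels was not tested.

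The authors' deposited table of DESeq2 results can be set beside these counts. At an adjusted p under 0.05 it listed 51 higher and 35 lower lncRNA genes with da, 43 and 34 with knock-down, 36 and 15 with da:da, and 99 and 57 with scute. In the authors' deposited table the share of all 9980 genes that passed was 32.6% with da, 29.5% with knock-down, 17.8% with da:da and 58.6% with scute, a larger share each time than among the 406 lncRNA genes. All lncRNA genes called here carried the same sign in the authors' deposited table, 44 of 44 with da, 53 of 53 with knock-down, 50 of 50 with da:da and 172 of 172 with scute. Of these, 44, 52, 42 and 154 were also past that threshold in the authors' deposited table.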

How the data were processed

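The deposited files hold whole-number read counts per gene for each of the 17 libraries. Per the file headers, reads were counted by the authors with featureCounts 2.0.2 over exons grouped by gene, against BDGP6.28 with annotation release 101, with no option for strand, for reads matching several places or for overlapping genes. In batch 2 paired files were given without the option that counts pairs, so mates were counted singly. The aligner is not given in the sources used here. RNA isolated with a PicoPure kit was amplified with RiboAmp HS PLUS before stranded mRNA libraries were made, per the labels' protocols, so levels carry any bias of the amplification. The workbook holds the authors' DESeq2 log2 fold changes and adjusted p-values as deposited. Its 17 columns of per-sample values were not used, since they carry no gene names.

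Counts were fitted per batch with edgeR 4.0.16 (limma 3.58.1, R 4.3.3): TMM scaling, filterByExpr with a minimum count of 10, 1 mean per group, quasi-likelihood tests and Benjamini-Hochberg adjustment over all genes of the batch, with calls at 0.05. CPM are counts per TMM-scaled library total of assigned reads. The 2 da libraries and all other groups of a batch shared 1 estimate of the spread. Gene names came from the workbook for 9985 genes and from a name table for 7762, and 60 had none. Spans and exons are those of the counting. Biotypes came from annotation release 115, in which 402 lncRNA genes kept the same span. Folds with a group at 0 counts were set against a floor of 3 counts over the group, and ratios with 1 to 3 counts carry 95% counting intervals. The fit was tested on simulated data: at 4-fold changes 82 of 100 genes were recovered for knock-down against control (9306 genes) and 82 of 100 for scute against control (13770 genes), at 2-fold 53 and 60. The changed genes were drawn at random from all genes of the fit. Recovery among the weakly expressed lncRNA genes was not measured.

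The lncRNA genes, the gene lists and the tests were chosen with earlier results of these data known. Named genes are, for each of the 4 comparisons with a control, the 6 largest rises and 6 largest falls among called genes without overlap between the groups, the 10 highest by CPM per kilobase, and the characterised lncRNAs. Others are said to be chosen after their values were seen, except the full lists of microRNA hosts and of genes called with both da and da:da. Alternatives were DESeq2 1.42.0, other scalings and filters, a replicate block, fits on fewer or all libraries and leaving out each library. Same-numbered knock-down and control libraries deviated together (correlations of 0.187, 0.19 and 0.287). Those of da overexpression and knock-down deviated in opposite directions (-0.279 and -0.255), and the other comparisons gave -0.233 to 0.159. Correlations of this size do not settle whether libraries were paired, and the labels give replicate numbers only, so the main fit has no block. Within each group, no library was a copy of another, and pairs across groups were not checked. Nothing says that the pools came from separate crosses, so p-values measure the spread between these pools. No sequences were read, since no genome sequence was used here.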

Additional observations from a re-analysis of the deposited data

How the results depend on the processing

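With 2 or 3 pools per group the number of calls depended on single libraries. Leaving out 1 library at a time gave 26 to 43 called lncRNA genes with da overexpression instead of 44, 30 to 53 with knock-down instead of 53, 34 to 55 with da:da instead of 50 and 151 to 178 with scute instead of 172. The direct comparisons gave 45 to 67 for da overexpression against knock-down instead of 66 and 144 to 176 for scute against da:da instead of 170. The lowest values came with batch 1 control replicates 1 and 2 left out, at 27 and 26 genes with da overexpression and 30 in either case with knock-down. A single fit over all 17 libraries called 67 lncRNA genes with da overexpression, of which 43 were among the 44. It tested 406 genes instead of 288. The replicate block gave 39 called genes with da overexpression, 50 with knock-down, 51 with da:da, 173 with scute, 56 for da overexpression against knock-down and 169 for scute against da:da. A replicate block on knock-down and control libraries alone, chosen after seeing the data, gave 54. Besides the knock-down calls of CR43785, CR45711 and CR45215, the block changed no knock-down call of a named gene. For da, da:da and scute, libraries with the same number as a control library did not deviate together with it. DESeq2, another scaling, another or no count filter, fits on the 2 groups alone and batch 2 counts divided by the number of mates kept the total of each comparison within 1.5 times of the value reported. By direction, a minimum count of 50 gave 8 instead of 14 lower genes with da overexpression, 13 instead of 20 with knock-down, and 25 instead of 38 higher genes for da overexpression against knock-down. Over the named genes and the microRNA hosts, 3534 of the alternative values kept their direction and side of the threshold, 118 were no longer called, 33 became called and 0 reversed. Low levels limit what could be called in batch 1, where 118 of the 406 genes were not tested.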
